A study of Homo sapiens with 12 samples.

Results

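The genes described here encode the machinery that copies DNA and repairs it by homologous recombination. They were chosen as a list of 56 symbols, and each was read from its brightest transcript cluster, the unit that the array summarises. Of the 56, 34 were annotated, out of 14884 genes tested, and 25 of these 34 belong to replication and 9 to homologous recombination. The other 22 were not analysed here. They were 3 of 12 homologous recombination genes, all 5 Fanconi genes, the polymerase and primase subunits POLA1, POLA2, PRIM1 and POLE2, the clamp loader subunits RFC2, RFC3, RFC4 and RFC5, and ORC1, ORC6, LIG1, TK1, CHAF1A and CHAF1B.

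RNA came from MDA-MB-231 and HCC70, established human lines of triple-negative breast cancer, each cultured in either JQ1 (500 nM) or DMSO vehicle (0.1%) over 72 hours. JQ1 is a small molecule that displaces the BET bromodomain proteins from acetylated chromatin. There were 3 arrays (Human Gene 2.0 ST) in each of 4 groups, namely JQ1-treated MDA-MB-231, vehicle-treated MDA-MB-231, JQ1-treated HCC70 and vehicle-treated HCC70. Each line is 1 tumour-derived line, and no label states whether replicate arrays stem from separate cultures, so the p-values cover just the spread among these arrays, which may be technical.

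Replication is prepared in G1, when origins are licensed by loading of the MCM helicase with the help of CDC6 and CDT1. At the start of S phase the kinase CDC7, the factor MCM10, CDC45 and the GINS complex turn the loaded helicase into an active one, and polymerases, the PCNA clamp and a supply of deoxynucleotides then build the new strands. Homologous recombination repairs broken or stalled forks by copying the sister molecule, and in dividing cells many genes of both processes are switched on together by E2F factors as cells approach S phase.

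Replicate arrays correlated with r between 0.989 and 0.995. Across treatments within a line r was 0.962 to 0.978, and across lines it was 0.875 to 0.90. The line labels were checked with marker genes. Of 8 annotated epithelial and basal markers 6 averaged higher in HCC70 than in MDA-MB-231 under both treatments, and the keratins KRT8 and KRT18 averaged lower. Of 5 annotated mesenchymal markers 4 averaged lower in HCC70 under both treatments, and TWIST1, at 3.61 to 3.94 in HCC70 and 3.63 to 3.67 in MDA-MB-231, did not separate the lines. The epithelial genes GRHL2 and ESRP1 averaged log2 signals of 9.76 to 11.08 in the HCC70 groups and 4.56 to 4.81 in the MDA-MB-231 groups, and the mesenchymal factor ZEB1 averaged 4.31 to 4.47 in the HCC70 groups and 7.34 to 7.74 in the MDA-MB-231 groups. Of 4 annotated fibroblast, endothelial and adipocyte markers, 0 lay above the median gene in any group. Of 3 annotated blood cell markers, 1 to 2 did (CD68 in all groups, and CD14 in HCC70), while LYZ did not. No member averaged below the lower quartile of all genes in any group (0 of 34). In JQ1-treated MDA-MB-231, however, GINS4, RAD51AP1, GINS2 and RAD54L averaged 5.38, 5.42, 5.57 and 5.87, near the 4.92 to 5.21 of the endothelial marker VWF over the 4 groups. The background of these probes was not measured, so the falls of these 4 genes may be understated.

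In MDA-MB-231 JQ1 lowered nearly the whole set. Of the 34 genes 32 fell and 0 rose (limma with Benjamini-Hochberg adjustment over all genes, adjusted p threshold of 0.05, referred to below as called). That is 94.1% of the set, whereas 17.0% of all genes tested were called lower and 27.8% were called in either direction. The median log2 change was -1.12 (quartiles -1.67 and -0.81), a 2.17-fold lower signal, against a median of 0.02 over all genes. By this test 23 of 25 replication genes and all 9 recombination genes fell. The 2 genes that were not called were TIPIN and TIMELESS, partners in the complex that protects the moving fork. The RNA is from bulk cultures, in which fewer cells in S phase and less RNA per cell cannot be told apart.

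The falls were also large. A log2 change of at least 1 downward was reached by 22 of the 34 genes, compared with 3.55% of all genes tested. In 33 of the 34 genes each JQ1-treated array lay below every vehicle array, a pattern found in 21.3% of all genes.

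**Figure D1:**
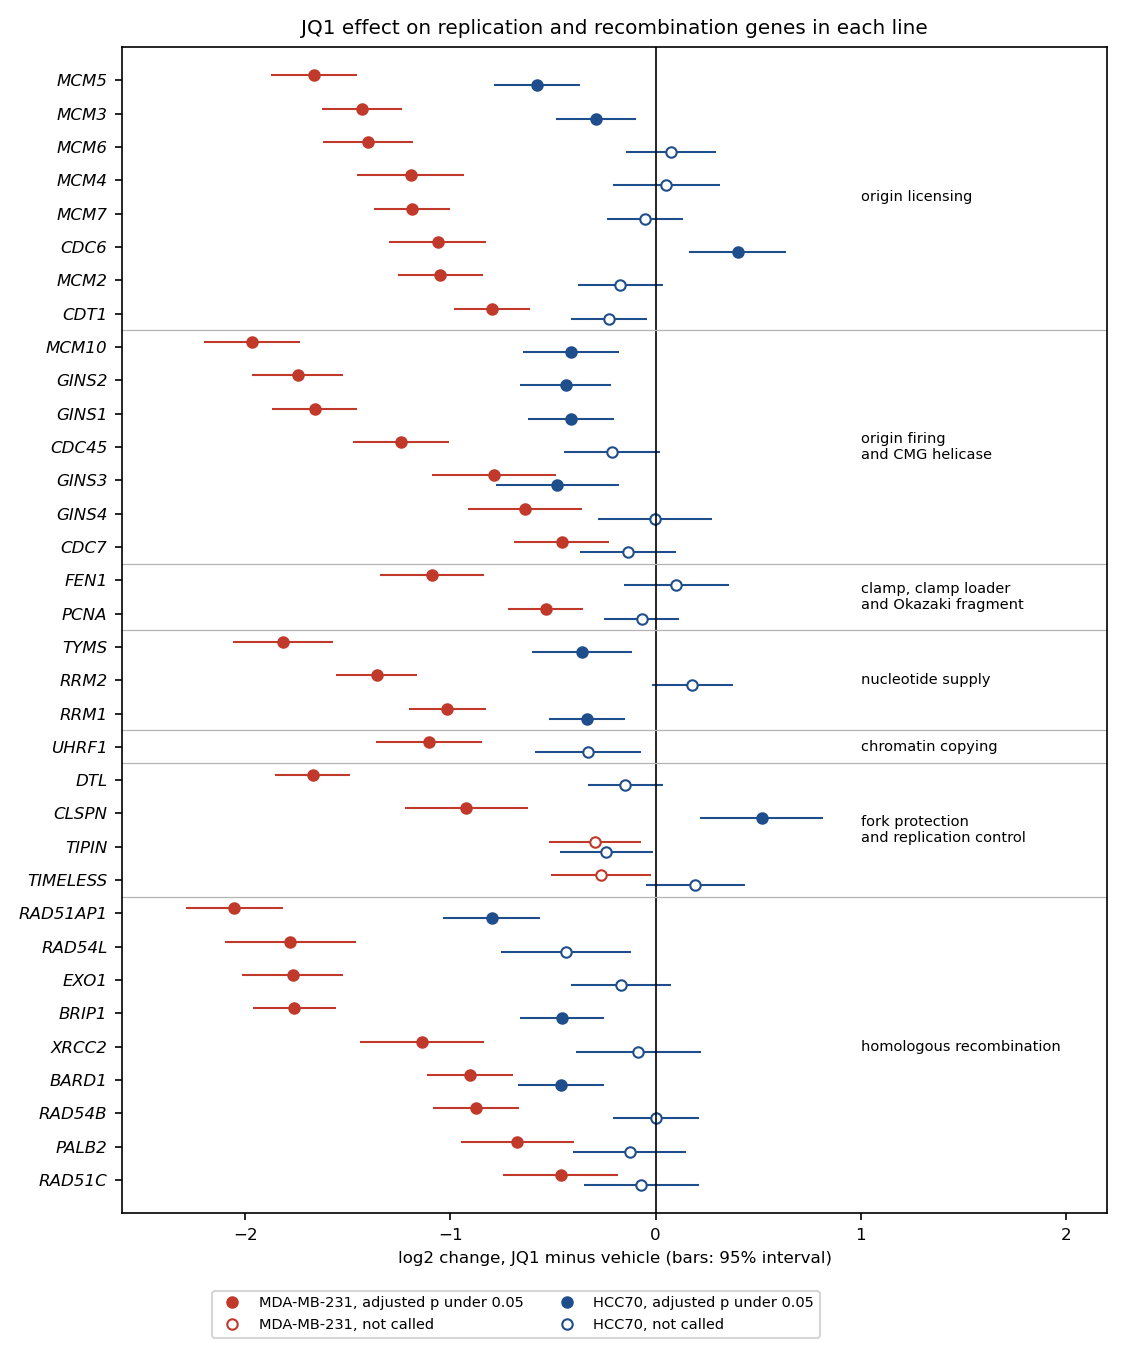
Log2 change under JQ1 relative to vehicle (horizontal axis) for the 34 genes, grouped by role, in MDA-MB-231 (red) and HCC70 (blue). Points are limma estimates with 95% intervals, filled where the adjusted p was under 0.05; in MDA-MB-231 32 of 34 are filled and lie left of 0, and in HCC70 13 are filled, of which 2 (CDC6 and CLSPN) lie right of 0.

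Among the origin licensing genes all 8 annotated fell in MDA-MB-231, with a median of -1.19. MCM5, a subunit of the helicase ring, read 7.25, 7.01 and 7.04 on the log2 scale in JQ1-treated MDA-MB-231, against 8.87, 8.79 and 8.63 in vehicle. These groups were far apart, and the change of -1.67 ± 0.096 (SE, limma adjusted p = 7.0e-08) was a 3.17-fold fall. MCM3, another subunit, read 8.77, 8.58 and 8.47 in JQ1-treated cells, against 10.10, 10.03 and 9.97 in vehicle, a fall of 2.70-fold. The remaining ring subunits MCM6, MCM4, MCM7 and MCM2 changed by -1.40, -1.19, -1.19 and -1.05. CDC6, which loads the ring onto origins, read 7.59, 7.27 and 7.34 in JQ1-treated cells, against 8.47, 8.46 and 8.45 in vehicle. All 3 JQ1-treated arrays were below the tightly grouped vehicle arrays, at a log2 change of -1.06 ± 0.11. The other loader, CDT1, had the smallest change of the group, -0.80 ± 0.085.

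Origin firing and helicase activation genes fell in 7 of 7 cases in MDA-MB-231, with sizes that varied widely, from -0.46 for the kinase CDC7 to -1.97 for MCM10. MCM10, which is needed to switch the helicase on, read 6.52, 6.29 and 6.44 in JQ1-treated cells, against 8.59, 8.37 and 8.20 in vehicle. That was a 3.91-fold fall (log2 change -1.97 ± 0.11, limma adjusted p = 4.7e-08). The 4 GINS subunits, which work as 1 complex with CDC45, did not change equally. GINS1 read 6.58, 6.27 and 6.38 in JQ1-treated cells, against 8.06, 8.14 and 8.02 in vehicle, a log2 change of -1.66 ± 0.096, and GINS2 changed by -1.74. GINS3 and GINS4 changed by less, -0.79 ± 0.14 and -0.64 ± 0.13. GINS4 has another, dimmer cluster with a log2 change of 0.23, and the mean of its clusters did not pass (-0.20, adjusted p = 0.18). CDC45 itself changed by -1.24.

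At the fork the 2 annotated genes were the sliding clamp PCNA and the flap nuclease FEN1, which trims Okazaki fragments. FEN1 read 7.23, 7.05 and 6.97 in JQ1-treated MDA-MB-231, against 8.27, 8.26 and 7.98 in vehicle, a log2 change of -1.09 ± 0.12. PCNA moved less, with 9.01, 8.84 and 8.91 in JQ1-treated cells against 9.52, 9.46 and 9.40 in vehicle. Its groups did not overlap either, and the log2 change was -0.54 ± 0.084 (limma adjusted p = 0.00036).

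All 3 nucleotide supply genes fell in MDA-MB-231. TYMS, thymidylate synthase, read 8.68, 8.40 and 8.32 in JQ1-treated cells, against 10.38, 10.26 and 10.22 in vehicle, which is 3.52-fold lower. RRM2, the small subunit of ribonucleotide reductase, read 7.79, 7.54 and 7.65 in JQ1-treated cells, against 9.14, 9.03 and 8.89 in vehicle. The groups were separated by more than their spread, with a log2 change of -1.36 ± 0.091. RRM1, the large subunit of the same enzyme, read 8.49, 8.38 and 8.35 in JQ1-treated cells, against 9.49, 9.44 and 9.34 in vehicle, a change of -1.02 ± 0.086.

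UHRF1, which brings the maintenance DNA methyltransferase to newly copied DNA, read 6.97, 7.14 and 7.29 in JQ1-treated MDA-MB-231, against 8.51, 8.15 and 8.06 in vehicle, a log2 change of -1.10 ± 0.12. DTL, the receptor subunit of a ubiquitin ligase that removes CDT1 during S phase, read 8.15, 8.06 and 8.05 in JQ1-treated cells, against 9.88, 9.77 and 9.62 in vehicle. With a change of -1.67 ± 0.085, DTL had the smallest adjusted p among the 34 genes (limma, 2.5e-08). CLSPN, the claspin adaptor of the replication checkpoint, read 7.96, 7.78 and 7.38 in JQ1-treated cells, against 8.80, 8.66 and 8.43 in vehicle. The spread of CLSPN under JQ1 was wide (SD 0.30), but the groups were apart and the change was -0.92 ± 0.14. TIPIN and TIMELESS gave -0.30 ± 0.10 and -0.26 ± 0.11 (limma adjusted p = 0.053 and 0.10), and passed under 5 and 4 of 21 alternatives. Each replicate 3 array other than that of vehicle-treated HCC70 had the lowest upper quartile of its group. Leaving out those 3 arrays gave 33 called genes, with TIMELESS added (limma adjusted p = 0.020).

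The 9 annotated recombination genes all fell in MDA-MB-231, with a median of -1.14. RAD51AP1, an accessory factor of homologous recombination, read 5.43, 5.34 and 5.50 in JQ1-treated cells, against 7.63, 7.51 and 7.29 in vehicle. Its 4.15-fold fall (log2 change -2.05 ± 0.11, limma adjusted p = 3.5e-08) was larger than that of the other 33 genes. BRIP1, a helicase, read 7.36, 7.41 and 7.31 in JQ1-treated cells, against 9.24, 9.13 and 8.99 in vehicle, a change of -1.76 ± 0.093. EXO1, an exonuclease that resects DNA ends, read 6.165, 6.362 and 5.995 in JQ1-treated cells, against 8.061, 7.915 and 7.853 in vehicle. The EXO1 groups were far apart, with a change of -1.77 ± 0.11. The strand exchange motor RAD54L changed by -1.78 ± 0.15 and its relative RAD54B by -0.87 ± 0.096. The recombination gene XRCC2 changed by -1.14, the scaffold proteins BARD1 and PALB2 by -0.90 and -0.67, and RAD51C by -0.46 ± 0.13 (limma adjusted p = 0.017). RAD51C lost its call on removal of JQ1 replicate 3 (limma adjusted p = 0.074) or of vehicle replicate 1 or 2 (0.051 and 0.067) in that line.

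The promoters of these genes were examined as well. The list is of genes for DNA copying and recombination, many of them switched on by E2F factors. The shares of letters below therefore describe the list and not the JQ1 effect. RefSeq windows (GRCh38.p14) from 250 bases before to 50 bases after the annotated start were found for 30 of the 34 genes. The windows were searched on both strands for the letters of an E2F site (TTTGGCGC, TTTCCCGC, TTTGCCGC or TTTCGCGC), of a CHR element (TTTGAA) and for CCAAT. The E2F letters were present in 16 of 30 windows, or 53.3%, against 3.33% of the 27305 windows of all genes and 4.49% of the windows of genes tested here. CCAAT was present in 20 of 30, or 66.7%, against 35.7% of all windows and 36.0% of those of genes tested. TTTGAA was present in 2 of 30, or 6.7%, against 15.4% of all windows and 11.8% of those of genes tested. Of the 22 E2F matches in the 16 genes, 18 lay between 100 bases before the start and the end of the window. The median log2 change in MDA-MB-231 was -1.16 in the 16 genes with a match and -1.05 in the 14 without, and in HCC70 it was -0.17 and -0.23. A match is a run of letters and not a measured binding site.

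The windows of 6 genes with E2F letters are printed to show where the matches lie, in 1 gene from each of 6 roles. The clamp and Okazaki fragment role has no window here, although PCNA also holds a match. Each runs 5′ to 3′ on the strand of the gene, and capitals mark the E2F letters on either strand.
TYMS (chr18:657403-657702, plus strand): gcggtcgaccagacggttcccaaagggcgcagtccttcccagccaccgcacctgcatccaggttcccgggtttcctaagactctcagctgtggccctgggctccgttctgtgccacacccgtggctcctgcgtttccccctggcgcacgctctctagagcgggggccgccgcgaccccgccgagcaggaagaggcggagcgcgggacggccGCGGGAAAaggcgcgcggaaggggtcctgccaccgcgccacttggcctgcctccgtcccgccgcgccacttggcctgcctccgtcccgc
EXO1 (chr1:241847954-241848253, plus strand): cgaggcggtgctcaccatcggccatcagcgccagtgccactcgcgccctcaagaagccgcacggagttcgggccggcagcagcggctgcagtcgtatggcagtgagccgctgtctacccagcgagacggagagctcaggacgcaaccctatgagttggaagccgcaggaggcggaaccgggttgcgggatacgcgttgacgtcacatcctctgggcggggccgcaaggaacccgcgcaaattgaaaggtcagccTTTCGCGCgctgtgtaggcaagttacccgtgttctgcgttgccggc
DTL (chr1:212035498-212035797, plus strand): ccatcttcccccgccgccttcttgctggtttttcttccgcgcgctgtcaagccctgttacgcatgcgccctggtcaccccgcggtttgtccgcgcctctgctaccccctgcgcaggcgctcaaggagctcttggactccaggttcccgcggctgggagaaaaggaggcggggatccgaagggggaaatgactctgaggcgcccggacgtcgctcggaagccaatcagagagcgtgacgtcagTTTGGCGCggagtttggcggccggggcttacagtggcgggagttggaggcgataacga
GINS1 (chr20:25407423-25407722, plus strand): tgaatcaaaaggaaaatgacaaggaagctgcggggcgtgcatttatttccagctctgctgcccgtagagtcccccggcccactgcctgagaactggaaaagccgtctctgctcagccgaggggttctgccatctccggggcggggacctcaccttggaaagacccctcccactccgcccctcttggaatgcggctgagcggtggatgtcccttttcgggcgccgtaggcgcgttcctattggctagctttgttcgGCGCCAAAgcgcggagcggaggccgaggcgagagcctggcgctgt
MCM3 (chr6:52284693-52284992, minus strand): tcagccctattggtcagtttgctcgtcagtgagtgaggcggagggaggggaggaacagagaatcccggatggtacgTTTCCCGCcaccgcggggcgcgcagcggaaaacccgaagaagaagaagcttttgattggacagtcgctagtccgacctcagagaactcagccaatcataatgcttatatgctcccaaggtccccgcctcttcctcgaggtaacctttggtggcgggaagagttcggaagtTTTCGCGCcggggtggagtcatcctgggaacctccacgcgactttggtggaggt
UHRF1 (chr19:4909251-4909550, plus strand): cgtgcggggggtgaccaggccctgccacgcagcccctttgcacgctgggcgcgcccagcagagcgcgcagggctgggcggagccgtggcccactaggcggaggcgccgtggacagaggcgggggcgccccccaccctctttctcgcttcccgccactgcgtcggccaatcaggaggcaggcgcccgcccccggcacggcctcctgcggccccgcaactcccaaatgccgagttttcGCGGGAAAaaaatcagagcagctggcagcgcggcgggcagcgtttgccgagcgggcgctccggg

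**Figure D2:**
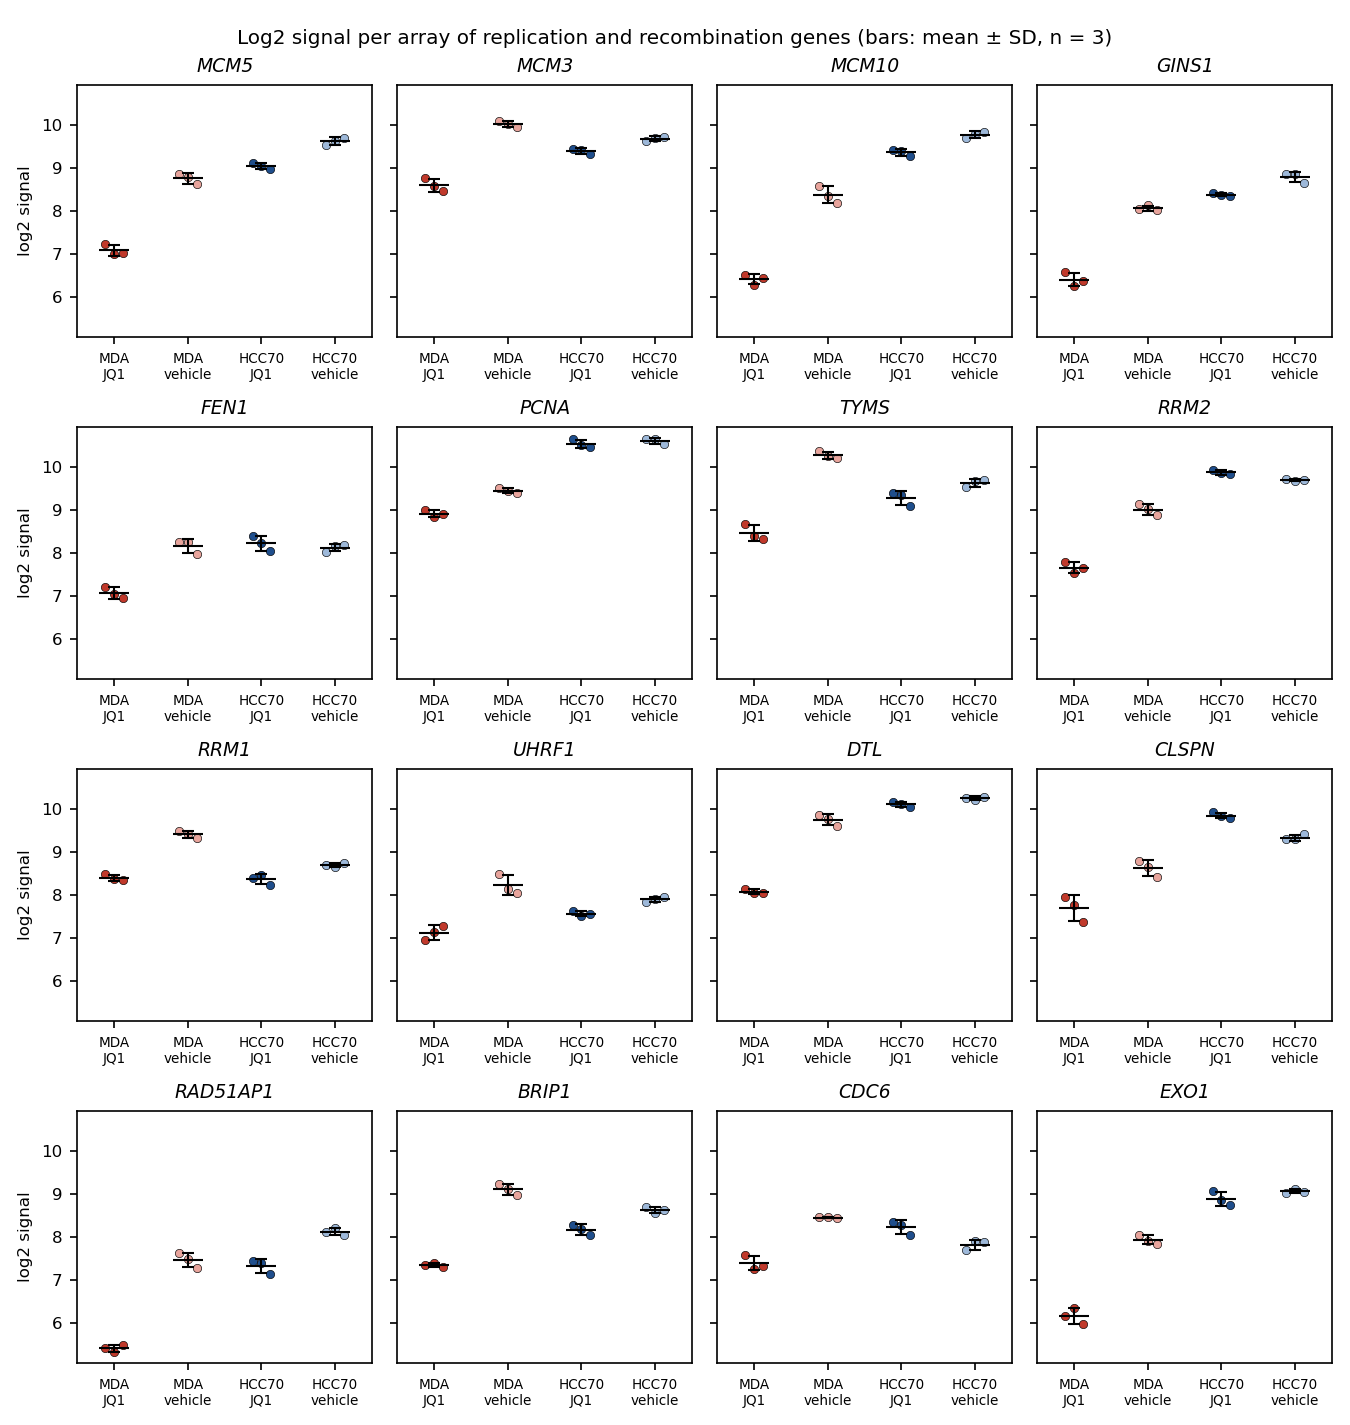
Log2 signal (vertical axis) of 16 genes on each of the 12 arrays, with the mean and SD of 3 arrays per group, in JQ1-treated and vehicle-treated MDA-MB-231 (reds) and JQ1-treated and vehicle-treated HCC70 (blues). In MDA-MB-231 every JQ1-treated array lies below every vehicle array in each of the 16 panels; in HCC70 the groups of FEN1, PCNA and EXO1 overlap, and CDC6, CLSPN and RRM2 lie higher under JQ1.

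In HCC70 the same genes moved little, and more of them fell than rose. Of the 34 genes 11 fell, 2 rose and 21 were not called (limma with Benjamini-Hochberg adjustment). The share called was 38.2%, against 21.7% of all genes tested. The share called lower was 32.4%, against 12.5% of all genes, and 9.18% of all genes were called higher. In 19 of the 34 genes every JQ1-treated array lay below every vehicle array, a pattern found in 19.6% of all genes. The reverse order, every JQ1-treated array above every vehicle array, held in 4 of the 34, against 17.8% of all genes. The median log2 change was -0.17 (quartiles -0.40 and -0.02), against 0.01 over all genes, and 0 of the 34 genes reached a log2 change of 1. The mean over the 34 genes was 8.63, 8.54 and 8.43 on the JQ1-treated HCC70 arrays, against 8.68, 8.72 and 8.72 on the vehicle arrays. Without JQ1 replicate 3, which had the lowest of these means, 8 genes were called, and 8 were called without vehicle replicate 3. Calls over all 14884 genes tested were then 2877 and 2574, against 3229 with all arrays. The count of the 34 genes thus fell closer to the share over all genes.

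Among licensing genes in HCC70, MCM5 and MCM3 fell and CDC6 rose. MCM5 read 9.13, 9.06 and 8.99 in JQ1-treated HCC70, against 9.55, 9.65 and 9.72 in vehicle, a log2 change of -0.58 ± 0.096 (limma adjusted p = 0.00078). MCM3 read 9.46, 9.42 and 9.34 in JQ1-treated cells, against 9.64, 9.70 and 9.74 in vehicle. The MCM3 groups were apart by little more than their spread, at -0.29 ± 0.090 (limma adjusted p = 0.036), and 9 of 21 alternatives ended that call, including the removal of each HCC70 array in turn (limma adjusted p between 0.056 and 0.117). CDC6 read 8.36, 8.28 and 8.05 in JQ1-treated cells, against 7.70, 7.91 and 7.89 in vehicle, a rise of 1.32-fold (limma adjusted p = 0.018). CDC6 was no longer called once vehicle replicate 1, JQ1 replicate 1 or JQ1 replicate 2 had been removed (adjusted p between 0.068 and 0.081). The ring subunits MCM2, MCM4, MCM6 and MCM7 were not called, with log2 changes of -0.17, 0.05, 0.08 and -0.05, and their 95% intervals together ran from -0.38 to 0.31. CDT1, at -0.23 ± 0.085, was not called either (limma adjusted p = 0.079), with groups apart, and passed under 2 of 21 alternatives.

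Helicase activation genes fell in 4 of 7 cases in HCC70, by similar amounts. GINS1 read 8.42, 8.39 and 8.35 in JQ1-treated HCC70, against 8.87, 8.86 and 8.66 in vehicle, a log2 change of -0.41 ± 0.096 (limma adjusted p = 0.0074). MCM10 read 9.44, 9.40 and 9.28 in JQ1-treated cells, against 9.70, 9.81 and 9.84 in vehicle. Its change was -0.41 ± 0.11, beside -0.44 for GINS2 and -0.48 for GINS3. The calls of MCM10 and GINS3 ended without JQ1 replicate 3 (adjusted p = 0.056 and 0.087) or vehicle replicate 3 (0.058 and 0.098); MCM10 also lost it without vehicle replicate 2 (0.051), and GINS3 without vehicle replicate 1 (0.079) or JQ1 replicate 2 (0.066). CDC45, CDC7 and GINS4 gave -0.21, -0.13 and -0.0043 and were not called.

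The fork genes FEN1 and PCNA overlapped between groups in HCC70. FEN1 read 8.41, 8.25 and 8.05 in JQ1-treated HCC70, against 8.04, 8.16 and 8.19 in vehicle (log2 change 0.10, 95% interval -0.15 to 0.36). PCNA read 10.65, 10.53 and 10.47 in JQ1-treated cells, against 10.66, 10.65 and 10.54 in vehicle (log2 change -0.07, 95% interval -0.25 to 0.12). Neither was called.

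The subunits of ribonucleotide reductase gave estimates of opposite sign in HCC70, of which that of RRM1 was called. RRM1 read 8.41, 8.46 and 8.24 in JQ1-treated HCC70, against 8.70, 8.66 and 8.74 in vehicle, a fall of 0.33 ± 0.086 on the log2 scale (limma adjusted p = 0.014). RRM2 read 9.95, 9.87 and 9.84 in JQ1-treated cells, against 9.72, 9.69 and 9.71 in vehicle. Every JQ1-treated array of RRM2 was above every vehicle array, yet the log2 change of 0.18 ± 0.091 did not pass (limma adjusted p = 0.21). TYMS read 9.40, 9.35 and 9.10 in JQ1-treated cells, against 9.54, 9.68 and 9.70 in vehicle. Its change of -0.36 ± 0.11 was called (limma adjusted p = 0.038), but 7 of 21 alternatives ended the call of TYMS, among them centring the arrays (adjusted p = 0.092) and removing replicate 2 or 3 of either HCC70 group (0.066 to 0.145). The call of RRM1 ended without JQ1 replicate 3 (adjusted p = 0.056) or vehicle replicate 3 (0.055).

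CLSPN, lower under JQ1 in MDA-MB-231, rose in HCC70. It read 9.93, 9.84 and 9.80 in JQ1-treated HCC70, against 9.30, 9.30 and 9.42 in vehicle, which is 1.43-fold higher (log2 change 0.52 ± 0.14, limma adjusted p = 0.017). CLSPN was no longer called once JQ1 replicate 1 or vehicle replicate 1 or 2 had been removed (adjusted p between 0.056 and 0.058), nor when its 2 clusters were averaged (0.067). DTL read 10.17, 10.12 and 10.06 in JQ1-treated cells, against 10.27, 10.23 and 10.30 in vehicle. That difference of -0.15 ± 0.085 did not pass (limma adjusted p = 0.28). UHRF1 read 7.64, 7.52 and 7.57 in JQ1-treated cells, against 7.85, 7.91 and 7.96 in vehicle, with groups apart but a change of -0.33 ± 0.12 that missed the threshold (limma adjusted p = 0.072). TIPIN and TIMELESS gave -0.24 and 0.19 and were not called.

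Of the 9 recombination genes 3 fell in HCC70, namely RAD51AP1, BARD1 and BRIP1. RAD51AP1 read 7.45, 7.40 and 7.16 in JQ1-treated HCC70, against 8.12, 8.23 and 8.05 in vehicle. At 1.74-fold (log2 change -0.80 ± 0.11, limma adjusted p = 0.00018) this fall was larger than that of the other 33 genes in HCC70, as it was in MDA-MB-231. BRIP1 read 8.29, 8.19 and 8.04 in JQ1-treated cells, against 8.70, 8.56 and 8.63 in vehicle, and changed by -0.46 ± 0.093, with -0.46 ± 0.097 for BARD1. EXO1 read 9.08, 8.86 and 8.76 in JQ1-treated cells, against 9.03, 9.12 and 9.06 in vehicle, groups that overlapped (log2 change -0.17, 95% interval -0.41 to 0.08). RAD54L, at -0.44 ± 0.15, just missed the threshold (limma adjusted p = 0.052) and passed it under 10 of 21 alternatives. PALB2, RAD51C, XRCC2 and RAD54B lay between -0.13 and 0.0027. Across the set, 6 of the 13 HCC70 calls held under every alternative run (MCM5, GINS1, GINS2, BARD1, RAD51AP1 and BRIP1), other than a required log2 change of 1, which left 0.

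The difference of the JQ1 effects was tested directly, as the effect in HCC70 minus the effect in MDA-MB-231. It was positive for all 34 genes and was called for 28, or 82.4%, against 9.02% of all genes tested called in that direction and 15.0% called in either. It was called negative for 0 members, against 5.95% of all genes. The median difference was 1.11 on the log2 scale (quartiles 0.58 and 1.33), and the median over all genes was 0.00. In all 11 of the 34 genes were called lower in both lines, against 6.89% of all genes tested. Of the 28 genes with a called difference, 2 rose in HCC70 and fell in MDA-MB-231, 10 were called lower in both lines, and 16 were called in MDA-MB-231 but not in HCC70.

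The most positive differences were in EXO1, MCM10, RRM2 and DTL. EXO1 changed by -0.17 in HCC70 and by -1.77 in MDA-MB-231, a difference of 1.60 ± 0.16 (limma adjusted p = 2.4e-05). MCM10 changed by -0.41 in HCC70 and by -1.97 in MDA-MB-231, a difference of 1.56 ± 0.15. In both genes the fall in MDA-MB-231 exceeded the HCC70 change by more than 1 log2 unit. RRM2 changed by 0.18 in HCC70 and by -1.36 in MDA-MB-231, a difference of 1.54 ± 0.13. DTL changed by -0.15 in HCC70 and by -1.67 in MDA-MB-231, a difference of 1.52 ± 0.12 (limma adjusted p = 4.6e-06). The genes that rose in HCC70 followed closely, with differences of 1.46 ± 0.15 for CDC6 and 1.44 ± 0.20 for CLSPN.

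**Figure D3:**
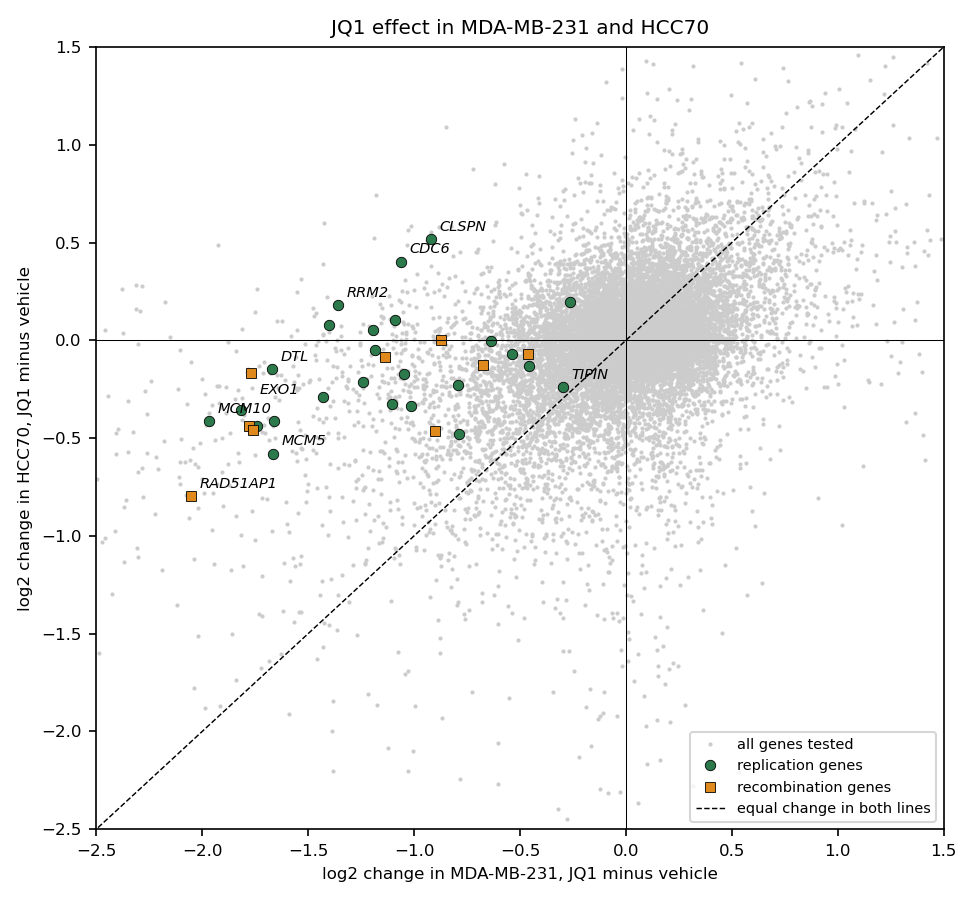
Log2 change under JQ1 relative to vehicle in HCC70 (vertical axis) against that in MDA-MB-231 (horizontal axis) for 25 replication genes (green circles), 9 recombination genes (orange squares) and all genes tested (grey; 77 genes lie outside the axes). All 34 points lie above the dashed line of equal change, with TIPIN nearest to it and EXO1 farthest.

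The difference was not called for CDC7, GINS3, TIPIN, TIMELESS, PALB2 and RAD51C. TIPIN gave 0.05 with a 95% interval of -0.27 to 0.37. The intervals of the others lay between -0.12 and 0.94, all below the median difference of 1.11. With the replicate number as a block in both lines, PALB2 was called too (0.55, limma adjusted p = 0.042). PALB2 and TIMELESS were each called under 5 of 20 alternatives and CDC7 under 1. GINS3, TIPIN and RAD51C were called under none. Among the called genes BARD1 had a small difference, 0.44 ± 0.14 (limma adjusted p = 0.048), which was lost without any 1 of the 12 arrays but MDA-MB-231 vehicle replicate 3 and HCC70 JQ1 replicate 3 (adjusted p = 0.062 to 0.115). The call of GINS4 ended with the mean of its clusters (adjusted p = 0.41) and without any 1 of 7 arrays (0.069 to 0.085), namely MDA-MB-231 vehicle replicates 1 and 2, MDA-MB-231 JQ1 replicate 3, HCC70 vehicle replicates 1 and 2 and HCC70 JQ1 replicates 1 and 2. That of PCNA, 0.47 ± 0.12, ended without HCC70 vehicle replicate 3 (adjusted p = 0.053).

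The set also differed between the vehicle-treated lines. With vehicle for 72 hours, 22 of the 34 genes were higher and 8 lower in HCC70 than in MDA-MB-231. That is 88.2% called in all, against 47.0% of all genes tested. Of all genes, 23.8% were called higher and 23.2% lower. The 8 lower genes were 23.5% of the 34, near the share over all genes. In 7 of the 34 genes every HCC70 array lay below every MDA-MB-231 array, against 26.7% of all genes, and in 24 every one lay above, against 28.5%. The median difference was 0.65 on the log2 scale, against 0.03 over all genes. The mean over the 34 genes was 8.71 in vehicle-treated HCC70 and 8.25 in vehicle-treated MDA-MB-231, and under JQ1 it was 8.53 in HCC70 and 7.08 in MDA-MB-231. These vehicle arrays also enter the JQ1 effects above, so the comparisons are not independent.

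Genes higher in vehicle-treated HCC70 were led by MCM10, with 9.70, 9.81 and 9.84 in HCC70, against 8.59, 8.37 and 8.20 in MDA-MB-231 (log2 difference 1.40 ± 0.11). BARD1 read 8.94, 8.99 and 8.93 in HCC70, against 7.80, 7.75 and 7.57 in MDA-MB-231, a difference of 1.25 ± 0.097. RAD54B followed with 1.18 ± 0.096. The lines did not overlap in any of these genes. Lower in vehicle-treated HCC70 were the nucleotide enzymes RRM1 (-0.72 ± 0.086) and TYMS (-0.64 ± 0.11) and the loader CDC6 (-0.63 ± 0.11). RRM2, the partner of RRM1, went the other way, at 0.69 ± 0.091. MCM6, FEN1, TIPIN and RAD51C were not called. The calls of MCM7, GINS4 and UHRF1 were lost under 3, 8 and 5 of the alternatives.

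**Figure D4:**
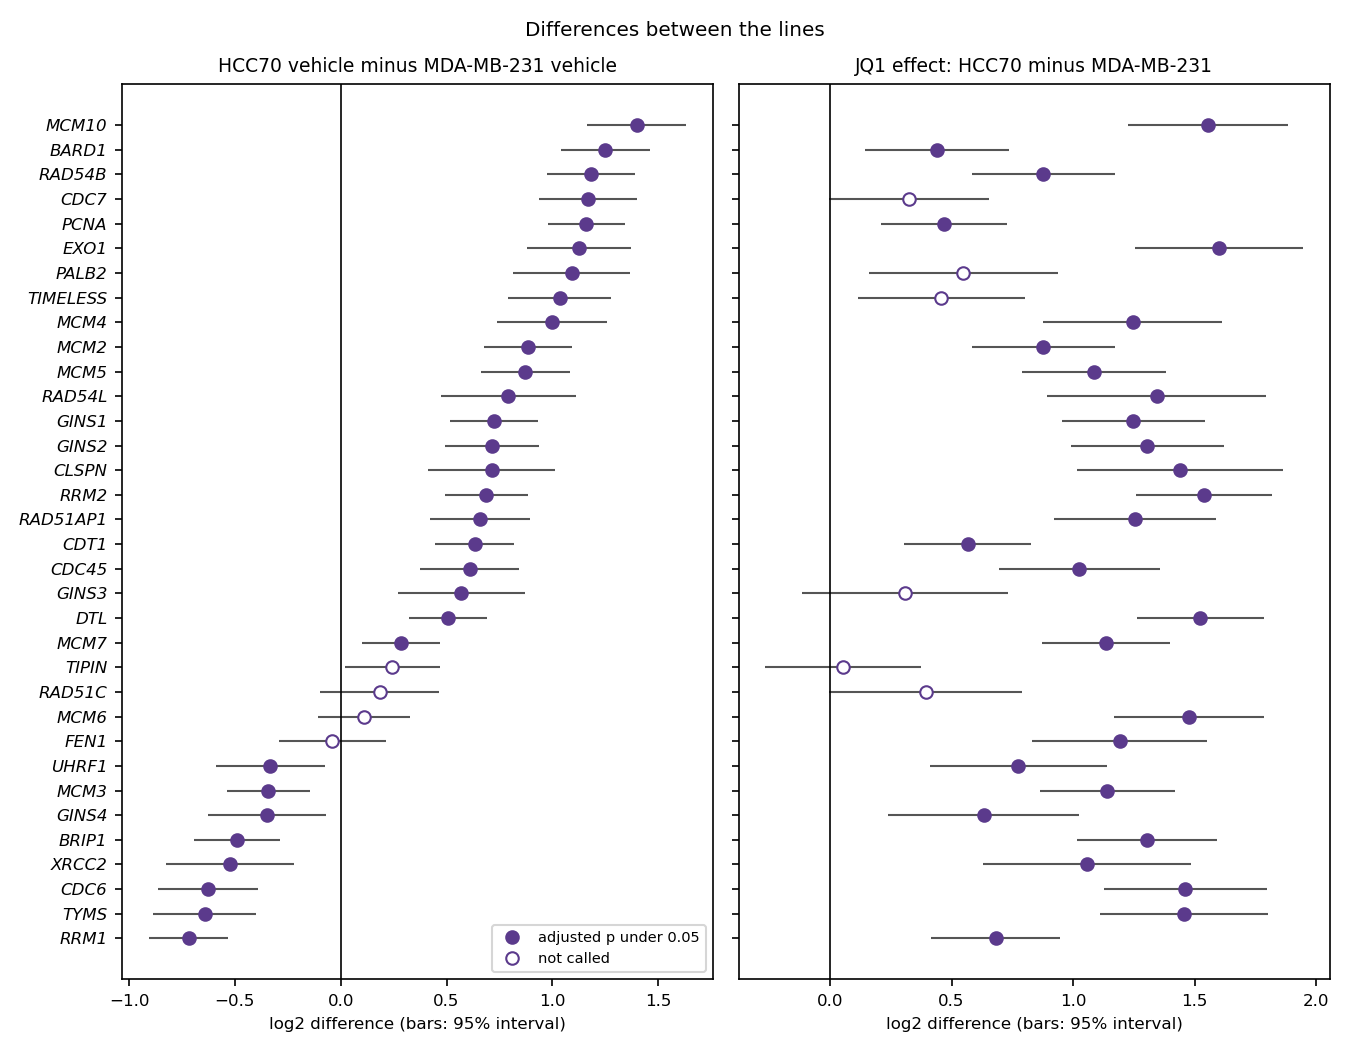
Log2 differences (horizontal axes) with 95% intervals for the 34 genes, ordered by the left panel, between vehicle-treated HCC70 and vehicle-treated MDA-MB-231 (left) and between the JQ1 effects in HCC70 and MDA-MB-231 (right). Filled points had an adjusted p under 0.05; the left panel has 22 filled points right of 0 and 8 left of it, and the right panel has 28, each right of 0.

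Other genes of DNA replication, recombination and repair were read from further lists, of which 87 of 165 genes were annotated. In MDA-MB-231 48 of the 87 fell and 3 rose, with a median log2 change of -0.36, and in HCC70 19 fell and 4 rose, with a median of -0.09. As shares, 55.2% fell in MDA-MB-231, against 17.0% of all genes tested, and 21.8% fell in HCC70, against 12.5% of all genes. Rises were scarcer than over all genes, of which 10.8% were called higher in MDA-MB-231 and 9.18% in HCC70. Among 17 further replication genes 11 (64.7%) fell and 0 rose in MDA-MB-231. TICRR, which helps load CDC45, fell by 1.92 ± 0.12 and the fork adaptor WDHD1 by 1.38 ± 0.085. In HCC70 3 of the 17 (17.6%, near the share over all genes) fell, including the firing and checkpoint scaffold TOPBP1 (-0.82 ± 0.099) and the nucleotide pyrophosphatase DCTPP1 (-0.42 ± 0.095), and 1 rose. That gene was RRM2B, the alternative small subunit of ribonucleotide reductase that supplies nucleotides outside S phase, with a log2 change of 0.68 ± 0.11.

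Recombination and Fanconi genes outside the set fell in 11 of 20 cases (55%) in MDA-MB-231 and in 4 of 20 (20%) in HCC70, with 1 rise in each. The share that fell in HCC70 was not far above the 12.5% over all genes. The Fanconi ubiquitin-conjugating enzyme UBE2T fell by 1.66 ± 0.10 in MDA-MB-231 and the deubiquitinase USP1 by 0.93 ± 0.074, while the polymerase POLN rose by 1.10 ± 0.11. In HCC70 USP1 fell by 0.42 ± 0.074 and FAAP24, of the Fanconi core complex, by 0.64 ± 0.14, while the nuclease scaffold SLX4 rose by 0.61 ± 0.094. Among 11 checkpoint genes 3 fell and 1 rose in MDA-MB-231 (36.4% called, near the 27.8% over all genes), and 2 fell in HCC70 (18.2%, also near the share over all genes). The kinase CHEK1 fell by 0.31 ± 0.080 in HCC70 and by 1.38 ± 0.080 in MDA-MB-231. Its HCC70 call ended under 4 of 21 alternatives. Among them were median centring (limma adjusted p = 0.054) and removal of JQ1 replicate 3 (0.054) or vehicle replicate 3 (0.063). ATR fell by 0.36 ± 0.11 and the clamp subunit RAD1 rose by 0.51 ± 0.12 in MDA-MB-231. There the call of ATR ended without vehicle replicate 1 (limma adjusted p = 0.104), vehicle replicate 2 (0.085) or JQ1 replicate 3 (0.092). It also ended after quantile normalization (0.065) or median centring (0.055), and when each line was fitted alone (0.087). The damage mediator MDC1 fell by 0.34 ± 0.080 in HCC70.

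Repair genes of other pathways moved in part and, in some, by like amounts in both lines. Over all genes tested, 17.0% were called lower in MDA-MB-231 and 12.5% in HCC70. All 4 annotated end joining genes fell in MDA-MB-231 and 2 of 4 in HCC70. XRCC4, the partner of the end joining ligase, fell by 1.46 ± 0.17 in HCC70 and by 1.40 ± 0.17 in MDA-MB-231, with a difference of the effects of -0.06 ± 0.23 that did not pass (limma adjusted p = 0.915). The nuclease DCLRE1C fell by 0.58 ± 0.13 in HCC70 and by 0.995 ± 0.13 in MDA-MB-231. Among 15 base excision repair genes 7 (46.7%) fell and 0 rose in MDA-MB-231, and 3 (20%) fell and 1 rose in HCC70. The glycosylase NEIL3 gave -0.21 ± 0.10 in HCC70, where it was not called, and fell by 2.24 ± 0.10 in MDA-MB-231 (difference 2.03 ± 0.14). Its relative NEIL1 fell by 0.94 ± 0.14 in HCC70 and by 1.43 ± 0.14 in MDA-MB-231, and the poly(ADP-ribose) polymerase PARP2 by 0.75 ± 0.13 in HCC70 and by 1.23 ± 0.13 in MDA-MB-231. The glycosylase TDG rose by 0.35 ± 0.083 in HCC70. In the 5 mismatch repair genes MSH6 fell by 0.36 ± 0.089 and MSH3 rose by 0.48 ± 0.10 in MDA-MB-231, and MLH3 rose by 0.42 ± 0.11 in HCC70, a call that ended without JQ1 replicate 1 (adjusted p = 0.053) or JQ1 replicate 2 (0.063). Neither of the 2 annotated nucleotide excision repair genes was called in either line.

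The last of the further lists held E2F factors, which control S-phase genes, their DP and pocket protein partners, cyclin E genes and CDK2. Of its 16 genes 13 were annotated. In MDA-MB-231 11 of the 13 fell (84.6%, against 17.0% of all genes tested), with a median of -0.93. In HCC70 5 of the 13 fell (38.5%, against 12.5% of all genes), with a median of -0.21. By limma 0 rose in either line. E2F3 fell by 1.85 ± 0.092 in MDA-MB-231 and E2F8 by 1.95 ± 0.10. In HCC70 E2F2 fell by 2.06 ± 0.11 and E2F8 by 0.97 ± 0.10. E2F2 differed from the members in the sign of the difference of effects, at -1.46 ± 0.16 (limma adjusted p = 4.3e-05). Whether these factors had a part in the changes of the replication and recombination genes was not tested.

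**Figure D5:**
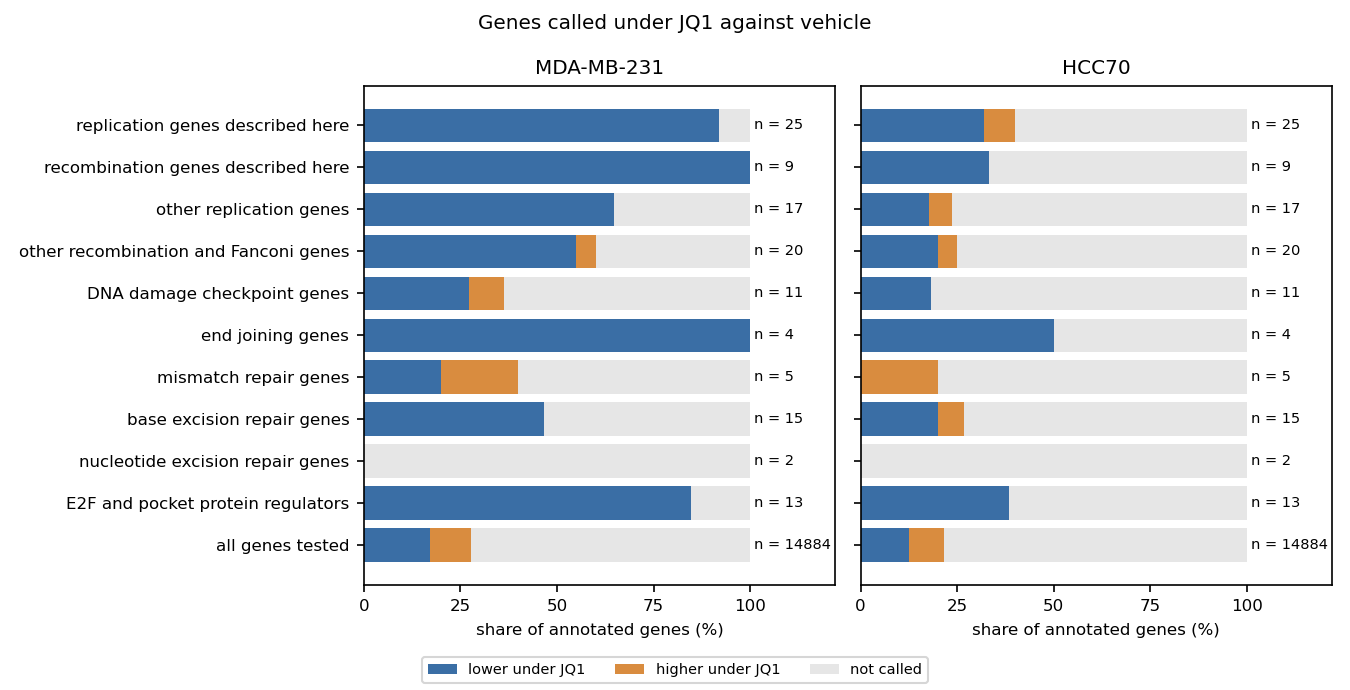
Share of annotated genes (horizontal axis, percent) called lower (blue), called higher (orange) or not called (grey) under JQ1 relative to vehicle, by gene list, in MDA-MB-231 (left) and HCC70 (right). The replication and recombination genes described here had 32 of 34 called lower in MDA-MB-231 and 11 of 34 in HCC70, and the bottom bar gives all 14884 genes tested.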

How the data were processed

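The deposited table holds log2 signals of 53617 transcript clusters on 12 arrays. The authors made them with RMA, and oligo and limma are also named per the submitters' processing notes, without versions; 150 ng of RNA was labelled per sample, per the labels' protocols. No genome build is stated by the labels. Of the clusters 16098 had 1 gene symbol, 0 had several and 37519 had none. The brightest cluster of a gene over the 12 arrays was kept (779 genes had more than 1), which gave 14884 genes with no filter on dim genes. Columns of other series numbered 0.

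Group means of all 12 arrays were fitted with limma 3.58.1 (lmFit, eBayes) in R 4.3.3, tests were two-sided, and Benjamini-Hochberg adjustment ran across the 14884 genes. SE is that of the limma coefficient, SD that of 3 arrays, and intervals are 95% and unadjusted. The procedure was tested on simulated data. Genes given with array values had the smallest p of their role (2 in MDA-MB-231, 1 in HCC70), rose in a line, or were among the 4 most positive called differences of effects (0 were called negative); 3 genes in each direction were named between the vehicle-treated lines, and up to 2 per list, line and direction among other pathway genes. Members, lists, rules and alternatives were chosen with earlier results of these data known.

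Results were recomputed with a replicate block, with separate fits per line, with trend and robust moderation, for the brighter genes (over the median), with averaged clusters, after quantile normalization or median centring, with array weights, with a minimum log2 change of 1, without the 3 replicate 3 arrays that had the lowest upper quartile of their group, and without each array in turn. Background correction was not varied, since scanner files were not used here. As a check of pairing, the deviations from group means of same-numbered JQ1 and vehicle arrays correlated at 0.155, 0.121 and 0.362 in MDA-MB-231, all over 0.1, and at -0.059, 0.015 and 0.070 in HCC70. Differently numbered arrays correlated at -0.25 to 0.121 in MDA-MB-231 and at -0.142 to 0.135 in HCC70. Some differently numbered pairs thus also passed 0.1, so these values do not settle whether the number pairs arrays in either line. The main fit used no block, and the replicate block covered both lines.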

Additional observations from a re-analysis of the deposited data

Results flagged for a closer look

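The JQ1 effect differed between the lines, by the limma test of the difference itself, for 28 of the 34 genes. The 4 most positive values (HCC70 minus MDA-MB-231, on the log2 scale) were 1.60 for EXO1, 1.56 for MCM10, 1.54 for RRM2 and 1.52 for DTL. Their causes were not tested.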

How the results depend on the processing

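Leaving out 1 array at a time, the count of the 34 genes called in MDA-MB-231 ranged from 31 to 33 (0 rose each time) and their median log2 change from -1.20 to -1.06. In HCC70 8 to 15 were called, of which 6 to 13 fell and 0 to 2 rose, with medians from -0.229 to -0.11. The lowest count, 8 with 6 falls, came without JQ1 replicate 3 or vehicle replicate 3, when 2877 and 2574 of all 14884 genes were called. No rise was left (0) without JQ1 replicate 1 or vehicle replicate 1, and 1 was left without replicate 2 of either group. The difference of effects was called for 26 to 31 genes, and the vehicle-treated lines differed in 27 to 30. Among the other pathway genes, 46 to 51 were called in MDA-MB-231 (43 to 48 fell, 3 to 5 rose) and 16 to 26 in HCC70 (12 to 22 fell, 3 to 6 rose), the 12 without HCC70 JQ1 replicate 3.

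With a replicate block, fitted in both lines, the JQ1 comparison called 32 genes in MDA-MB-231 and 13 in HCC70. The effects then differed in 29 genes, and the lines under vehicle also in 29, where UHRF1 lost its call (adjusted p = 0.082). A required log2 change of 1 left 0 genes in HCC70 (0 fell, 0 rose) and 8 between the vehicle-treated lines (8 higher, 0 lower in HCC70). Averaging the clusters of a gene left 1 rise in HCC70. Among the other pathway genes, the required change left 21 in MDA-MB-231 (20 fell, 1 rose) and 2 in HCC70 (2 fell, 0 rose). In MDA-MB-231 8 of them rose after quantile normalization and 5 without the 3 replicate 3 arrays lowest in upper quartile. In HCC70 7 rose with trend and robust moderation, 9 among genes over the median level, 9 after quantile normalization and 9 after median centring, where 12 fell. Array weights gave 45 calls in HCC70 (31 fell, 14 rose). Calls over all 14884 genes tested also increased with these weights, to 5110 from 3229 in the main fit. The causes were not tested.

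No call of the 34 genes changed sign under any alternative run. Of the calls, 30 of 32 in MDA-MB-231, 6 of 13 in HCC70, 25 of 28 for the difference and 27 of 30 between vehicle-treated lines held under every alternative other than the required log2 change. With 3 arrays a group, HCC70 changes near 0.3 on the log2 scale lay close to the threshold.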
